A study of Mus musculus with 18 samples.

Results

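The splicing factor genes described here are 46 genes of the mouse that code for proteins of the pre-mRNA splicing machinery, out of 19938 genes with a probe set assigned to a single gene. They are all genes whose symbol names an SR protein (Srsf, 10 genes), a heterogeneous nuclear ribonucleoprotein (Hnrnp, 17 genes), a subunit of SF3a or SF3b (Sf3, 9 genes) or a core protein of the small nuclear ribonucleoproteins (Snrp, 10 genes). Each gene is represented by its single-gene probe set with the highest mean over the 18 arrays. Hnrnpa1, Hnrnpa3, Hnrnph3, Snrpf and Snrpn have symbols of the same kind but appear only in probe sets that the annotation assigns to several genes, so they were left out. Srsf7 was not analysed here.

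Introns are removed from a pre-mRNA by the spliceosome, which is built on each intron from small nuclear ribonucleoproteins (snRNPs). The Sm proteins form a ring on the RNA of these particles, other Snrp proteins belong to the U1 or the U2 particle, and SF3a and SF3b hold the U2 particle at the branch point. SR proteins mostly bind exons and favour the use of nearby splice sites, whereas hnRNP proteins coat nascent transcripts and often disfavour it, so the balance between both families shifts alternative splicing. Several of these genes, Srsf1 and Srsf3 among them, are known to act as oncogenes when overproduced, also in breast cells.

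RNA was measured on whole-transcript arrays in 6 groups of 3 arrays. Comma-D cells are a mouse line of normal mammary epithelium, labelled normal and negative for erbB2 and its phosphorylated form. MMTV-neu cells come from mammary tumours of mice that express the neu (erbB2) oncogene from the mouse mammary tumour virus promoter, and they are labelled cancer and positive for both. In the other groups both lines were grown together in Comma-D medium at 1:50 or at 1:1, stained with an antibody against erbB2 and split on magnetic beads into a positive and a negative fraction. The same protocol text stands on the samples of the lines grown alone, without saying whether those were passed over the beads. Both erbB2-negative fractions are labelled normal, the 1:1 erbB2-positive fraction cancer, and the 1:50 erbB2-positive fraction redirected, with erbB2 but without its phosphorylated form. The labels do not settle which line contributed the larger part at 1:50, and no direction is assumed. MMTV-neu cells alone were kept in a different medium, with more serum and no added insulin or EGF, so line and medium cannot be told apart in comparisons with them. No label says that the replicates came from separate cultures, so the p-values measure the spread between these samples, which may be technical.

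Values are log2 array signals as deposited, and a difference of 1 on this scale is a doubling of the signal. Their spread over all genes was 1.85 to 1.88 (SD of an array) in Comma-D and 1.26 to 1.28 in MMTV-neu, with the 1:1 erbB2-positive arrays at 1.32 to 1.42 and the other groups between 1.49 and 1.87. The narrower spread brings high values down and low values up, so the counts of members and lists against the lines, and the named genes, were also checked on 2 other scales. These were centring every array on the median of a fixed set, the 25% of genes with the highest mean over all arrays, and quantile normalization. For MMTV-neu minus Comma-D, these moved the median difference of all genes from 0.40 to 1.52 and to 0.1. Centring adds the same amount to every difference of a comparison, so a difference in the direction of that shift cannot turn under it. Shares of all genes called are given for the deposited scale only, so the rescaled counts of members and lists have no background beside them. Replicate 1 of the 1:1 erbB2-negative fraction (SD 1.49, against 1.69 and 1.74) and replicate 1 of the 1:50 erbB2-positive fraction (SD 1.64, against 1.82 and 1.77) stood apart from the other arrays of their groups. Erbb2 itself averaged 8.20 ± 0.11 in Comma-D and 8.06 ± 0.14 in MMTV-neu (SD, n = 3). It was at 8.27 ± 0.10 and 8.22 ± 0.12 in the erbB2-negative and erbB2-positive fractions at 1:50, and lower, at 7.80 ± 0.07 and 7.87 ± 0.04, in those at 1:1. Its mean was thus lower in MMTV-neu than in Comma-D, slightly lower in the erbB2-positive fraction at 1:50, and slightly higher in it at 1:1. No probe sequences were available, so whether this probe set reports the neu transgene was not tested. Among epithelial markers, Krt8 had a mean of 7.41 in Comma-D and 11.34 in MMTV-neu, Krt14 of 10.98 and 7.43, Epcam of 9.53 and 5.88, Cdh1 of 9.41 and 7.12, and the mesenchymal gene Vim of 12.93 and 8.13. In bulk RNA of a fraction, fewer cells of a type and less RNA per cell cannot be told apart.

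The promoters of the genes with the largest differences between the lines give the sequence context of the members described first: Snrpb2 and Sf3b3 had the largest falls in MMTV-neu and Srsf12 and Hnrnpd the largest rises on the deposited scale. Each window runs from 250 bases before to 50 bases after the annotated start (RefSeq, GRCm38.p6), 5′ to 3′ on the gene's strand. Capitals mark the motifs searched on both strands, which are the ETS core CCGGAA, the CCAAT box, the GC box GGGCGG, the E-box CACGTG and the TATA motif TATAAA. Motifs were counted separately, also where they share bases.
Snrpb2 (chr2:143062819-143063118, plus strand): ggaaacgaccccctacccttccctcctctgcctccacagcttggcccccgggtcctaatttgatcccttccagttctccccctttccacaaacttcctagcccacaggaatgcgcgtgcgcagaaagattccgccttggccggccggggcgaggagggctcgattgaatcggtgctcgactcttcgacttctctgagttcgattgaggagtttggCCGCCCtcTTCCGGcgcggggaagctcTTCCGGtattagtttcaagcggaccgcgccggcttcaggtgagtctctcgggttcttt
Sf3b3 (chr8:110846754-110847053, minus strand): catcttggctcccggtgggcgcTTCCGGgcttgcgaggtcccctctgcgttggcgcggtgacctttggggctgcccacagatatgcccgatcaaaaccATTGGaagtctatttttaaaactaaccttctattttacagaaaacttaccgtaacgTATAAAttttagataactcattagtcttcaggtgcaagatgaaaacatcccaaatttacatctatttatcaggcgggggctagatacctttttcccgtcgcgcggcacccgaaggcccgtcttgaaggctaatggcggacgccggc
Srsf12 (chr4:33209022-33209321, plus strand): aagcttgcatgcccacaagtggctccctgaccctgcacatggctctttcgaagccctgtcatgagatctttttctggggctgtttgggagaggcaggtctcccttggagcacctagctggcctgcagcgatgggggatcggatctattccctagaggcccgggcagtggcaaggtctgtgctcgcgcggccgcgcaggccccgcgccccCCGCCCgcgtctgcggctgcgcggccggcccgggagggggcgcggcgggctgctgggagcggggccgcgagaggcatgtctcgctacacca
Hnrnpd (chr5:99978889-99979188, minus strand): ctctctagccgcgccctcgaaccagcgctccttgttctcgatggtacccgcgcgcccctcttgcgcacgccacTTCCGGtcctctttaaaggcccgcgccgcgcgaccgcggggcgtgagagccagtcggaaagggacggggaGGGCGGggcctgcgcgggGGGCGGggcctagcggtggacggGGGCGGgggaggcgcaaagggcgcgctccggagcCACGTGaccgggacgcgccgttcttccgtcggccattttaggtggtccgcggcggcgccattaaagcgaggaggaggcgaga
A promoter window was found for 40 of the 46 members, and 8 of these had more than 1. Only the first listed window of each gene was searched. The ETS core was in 22 of the 40 (55.0%), against 15.2% of all 27025 genes with a window. It was in 20.1% of 15614 genes tested here and in 31.5% of 4090 genes in the highest quartile of expression in Comma-D. The GC box was in 70.0% of members and 71.4% of that highest quartile, the CCAAT box in 45.0% and 37.7%, the E-box in 10.0% and 11.6%, and the TATA motif in 15.0% and 6.38%. A match describes these letters only, and says nothing of a factor bound there.

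The splicing factor genes were highly expressed. In Comma-D, 38 of the 46 lay in the highest quartile of all genes, 7 in the third quartile, 1 (Srsf12) in the second and 0 in the lowest. Replicates were close, with a median SD per member of 0.06 in Comma-D, 0.13 in both 1:50 fractions, 0.15 in the 1:1 erbB2-positive fraction and 0.22 in MMTV-neu and the 1:1 erbB2-negative fraction. The widest spread was that of Hnrnpc in MMTV-neu (SD 0.68, n = 3).

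Across the 6 groups, 35 of the 46 members differed by limma's moderated F test (adjusted p under 0.05, Benjamini-Hochberg method over all 19938 genes). That is 76.1% of members, against 90.4% of all genes and 93.1% of the highest quartile, so most of the transcriptome differed and the members did so no more often. By family, 8 of 9 SF3 subunits, 8 of 10 SR proteins, 8 of 10 snRNP proteins and 11 of 17 hnRNP proteins were called. The 11 that were not were Hnrnpc, Hnrnpk, Hnrnpm, Hnrnpr, Hnrnpu, Hnrnpul2, Sf3a3, Snrpa, Snrpb, Srsf10 and Srsf4. Their adjusted p ranged from 0.0538 (Srsf4) to 0.938 (Hnrnpk). A p above the threshold does not show that their levels were equal.

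**Figure D1:**
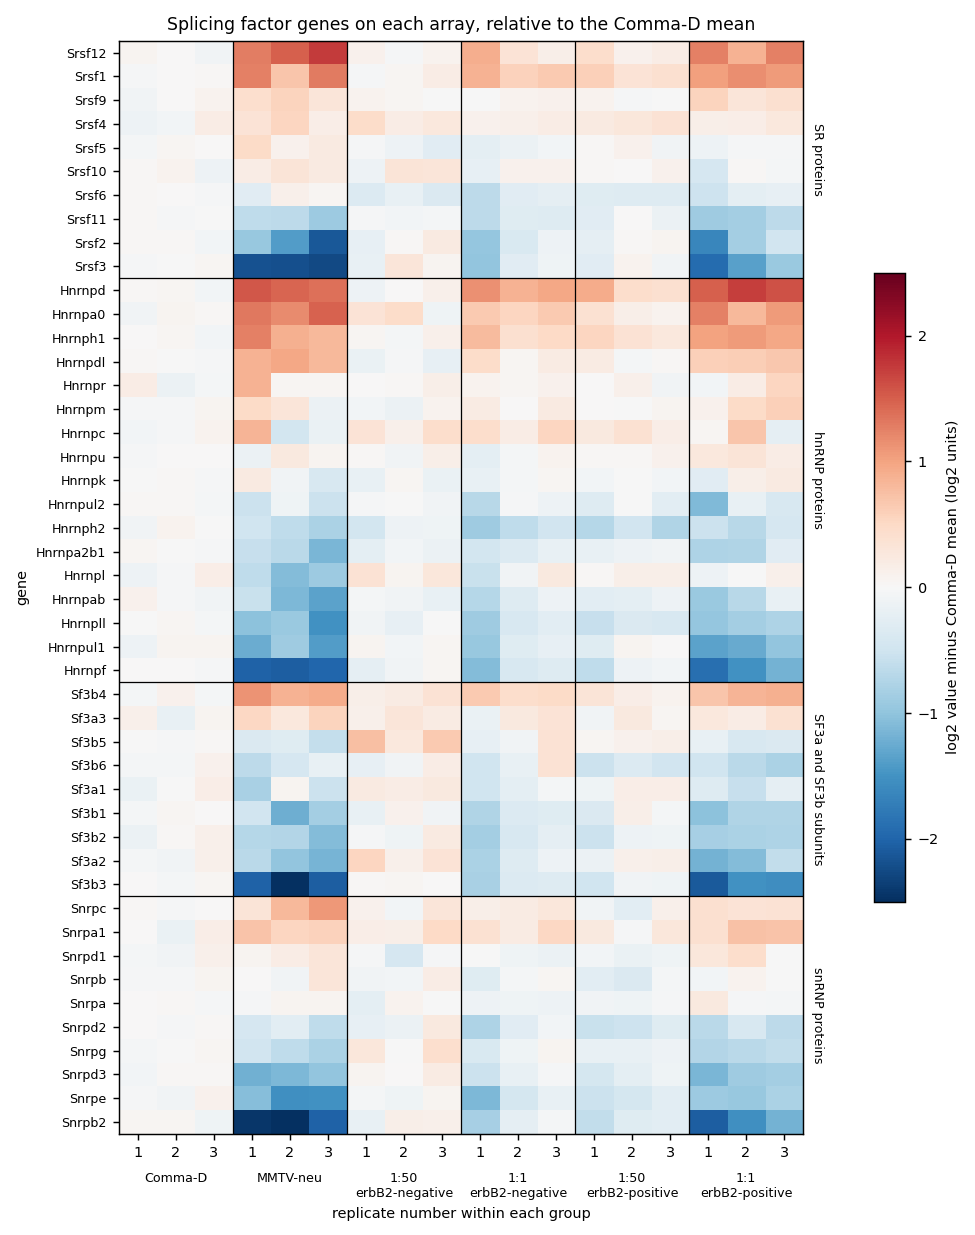
Level of each of the 46 splicing factor genes (rows, by family) on each of the 18 arrays (columns, by group and replicate), as the log2 value minus the Comma-D mean. Red is above and blue below Comma-D. The MMTV-neu and 1:1 erbB2-positive blocks hold the strongest colours, and the 1:50 fractions are pale.

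The first comparison sets the tumour line against the normal line. In MMTV-neu, 13 members were higher and 22 lower than in Comma-D, with a median difference of -0.24 log2 units, from -2.32 (Snrpb2) to 1.51 (Srsf12). This is 28.3% and 47.8% of members, where 56.4% of all genes were called higher and 30.4% lower (86.8% either way, median 0.40). Of the highest quartile of genes, which was picked on the Comma-D level, 5.96% were called higher and 83.7% lower, with a median of -1.37. The same quartile had a median of -0.0054 in 1:50 erbB2-negative minus Comma-D. The part of this picking in the lean downwards was not tested. The split of the members depended on the scale, with 31 higher and 4 lower after centring and 29 higher and 9 lower after quantile normalization. The shares of all genes given above are of the deposited scale and do not serve as background for these counts. The 13 rises held in both, and of the 22 falls only those of Hnrnpf, Sf3b3, Snrpb2 and Srsf3 did. Centring shifted every difference of this comparison upwards, so no rise could turn under it and only large falls could hold. The arrays of both lines did not overlap for 35 of the 46 members, against 87.2% of all genes.

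Among snRNP proteins, Snrpb2, the B″ protein of the U2 particle, was at 10.12, 10.13 and 9.97 on the Comma-D arrays and at 7.65, 7.55 and 8.05 on the MMTV-neu arrays. All 3 MMTV-neu arrays lay well under the lowest Comma-D array, a 5.01-fold lower signal (difference -2.32, SE 0.21, limma adjusted p 5.80e-08). After centring the difference was -1.21 and after quantile normalization -1.50. In this family 2 of 10 members were higher, 5 lower and 3 not called, with a median of -0.20. Snrpa, the A protein of the U1 particle, which binds U1 RNA, was at 10.22, 10.24 and 10.20 in Comma-D and at 10.20, 10.29 and 10.28 in MMTV-neu. These values overlapped, and the difference of 0.04 (SE 0.10, adjusted p 0.733) had a 95% interval of -0.17 to 0.24. It became 1.15 after centring and 1.16 after quantile normalization, and was called there. For Snrpc, the C protein of the U1 particle, which helps bind the 5′ splice site, the 3 probe sets differed by 0.74, 0.03 and -0.64, and for the Sm protein gene Snrpd2 the 5 probe sets differed by -0.44, -0.34, -0.21, 0.40 and -0.22. Both genes had probe sets called in each direction, so their direction is uncertain. The 2 probe sets of the Sm protein gene Snrpg differed in size only, at -0.64 and -2.47.

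Among SF3 subunits, Sf3b3, a large scaffold subunit of SF3b, was at 10.42, 10.36 and 10.45 in Comma-D and at 8.38, 7.79 and 8.35 in MMTV-neu. The lines were again fully apart, with a 4.71-fold lower signal in MMTV-neu (difference -2.24, SE 0.18, adjusted p 1.63e-08), and -1.12 and -1.25 after centring and quantile normalization. Of the 9 subunits 2 were higher (Sf3a3 and Sf3b4) and 7 lower, with a median of -0.44. Sf3b1, the subunit that clamps the branch point and is often mutated in human blood cancers, was at 10.61, 10.69 and 10.65 in Comma-D and at 10.18, 9.42 and 9.81 in MMTV-neu, a difference of -0.85 (SE 0.17, adjusted p 2.37e-04). Its direction turned to 0.27 after centring and 0.30 after quantile normalization, so it depends on the scale. It was called on neither of these scales (limma adjusted p 0.106 and 0.0546). Sf3a1, which contacts U1 as well as U2, differed by -0.44 (SE 0.18, adjusted p 0.0314), with overlapping arrays. The difference turned to 0.68 after centring (limma adjusted p 8.74e-04), and to 0.44 after quantile normalization, where it was not called (0.0517). On the deposited scale the call was lost without Comma-D replicate 2 (-0.45, adjusted p 0.0564) or 3 (-0.35, 0.118). It was also lost without MMTV-neu replicate 1 (-0.24, 0.202) or 3 (-0.38, 0.0950).

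SR proteins split in both directions, with 5 of 10 higher, 3 lower and 2 not called, and a median of 0.26. Srsf3, the smallest SR protein, was at 11.13, 11.15 and 11.20 in Comma-D and at 8.99, 8.97 and 8.90 in MMTV-neu. This was a 4.61-fold lower signal (difference -2.20, SE 0.22, adjusted p 1.57e-07), and all 3 of its probe sets were lower, by -2.20, -1.84 and -2.03. After centring and quantile normalization the fall was -1.09 and -1.08. Srsf2 was at 11.21, 11.22 and 11.12 in Comma-D and at 10.24, 9.78 and 9.06 in MMTV-neu, with a wide spread in the tumour line (difference -1.49, SE 0.28, adjusted p 1.14e-04). After both other scalings it was -0.37 and no longer called (adjusted p 0.141 and 0.182).

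Srsf1, the founding SR protein, moved the other way, from 9.09, 9.14 and 9.15 to 10.39, 9.82 and 10.42. The signal was 2.12-fold higher in MMTV-neu (difference 1.08, SE 0.14, adjusted p 1.43e-06), and the arrays did not overlap. On the other scales the difference was 2.20 and 2.18. Srsf12, whose probe set lay in the second quartile of expression, rose from 5.44, 5.38 and 5.28 to 6.65, 6.87 and 7.11. The difference was 1.51 (SE 0.17, adjusted p 4.28e-07), and 2.63 and 1.06 on the other scales. The Comma-D values lie below the median of all genes on those arrays (6.33 to 6.36), and no detection call was available to place them above background. Srsf5 was higher by 0.27 (SE 0.10, adjusted p 0.0212) on the probe set used, and differed by -0.02 on its other one. Its call was lost without Comma-D replicate 1 (0.25, adjusted p 0.0646) or MMTV-neu replicate 1 (0.17, 0.118).

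Among hnRNP proteins 4 of 17 were higher, 7 lower and 6 not called, with a median of -0.0912. Hnrnpf, which binds G-rich stretches, was at 10.86, 10.86 and 10.81 in Comma-D and at 8.83, 8.79 and 8.86 in MMTV-neu. The signal was 4.06-fold lower (difference -2.02, SE 0.19, adjusted p 9.70e-08), all 4 of its probe sets were lower, and the fall was -0.90 and -0.89 after the other scalings. Hnrnpd, also known as AUF1 for its binding to AU-rich elements, rose from 9.54, 9.57 and 9.45 to 11.07, 10.97 and 10.89, a 2.76-fold higher signal (difference 1.46, SE 0.13, adjusted p 3.74e-08). Hnrnpa0, an hnRNP of the A family, rose from 8.05, 8.21 and 8.17 to 9.47, 9.33 and 9.62 (difference 1.33, SE 0.14, adjusted p 2.93e-07). The lines were apart for each of these 3 genes. On the other scales Hnrnpd differed by 2.58 and 2.54 and Hnrnpa0 by 2.45 and 2.26.

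Hnrnpk, Hnrnpu, Hnrnpa2b1 and Hnrnpl showed small differences or ones that turned with the scale. Hnrnpk, a C-rich RNA binder, ranged from 11.63 to 11.69 in Comma-D and from 11.25 to 11.88 in MMTV-neu (difference -0.09, SE 0.14, adjusted p 0.557). It was 1.03 after centring and 0.79 after quantile normalization. Hnrnpu, a nuclear scaffold protein, differed by 0.05 (SE 0.11, adjusted p 0.649, 95% interval -0.18 to 0.29), and by 1.17 after both other scalings. Hnrnpa2b1, a close relative of Hnrnpa1, differed by -0.79 (SE 0.14, adjusted p 6.36e-05) and Hnrnpl, which binds CA repeats, by -0.88 (SE 0.16, adjusted p 9.55e-05). Their arrays did not overlap as deposited, but centring gave 0.32 and 0.24 and quantile normalization 0.38 and 0.20.

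**Figure D2:**
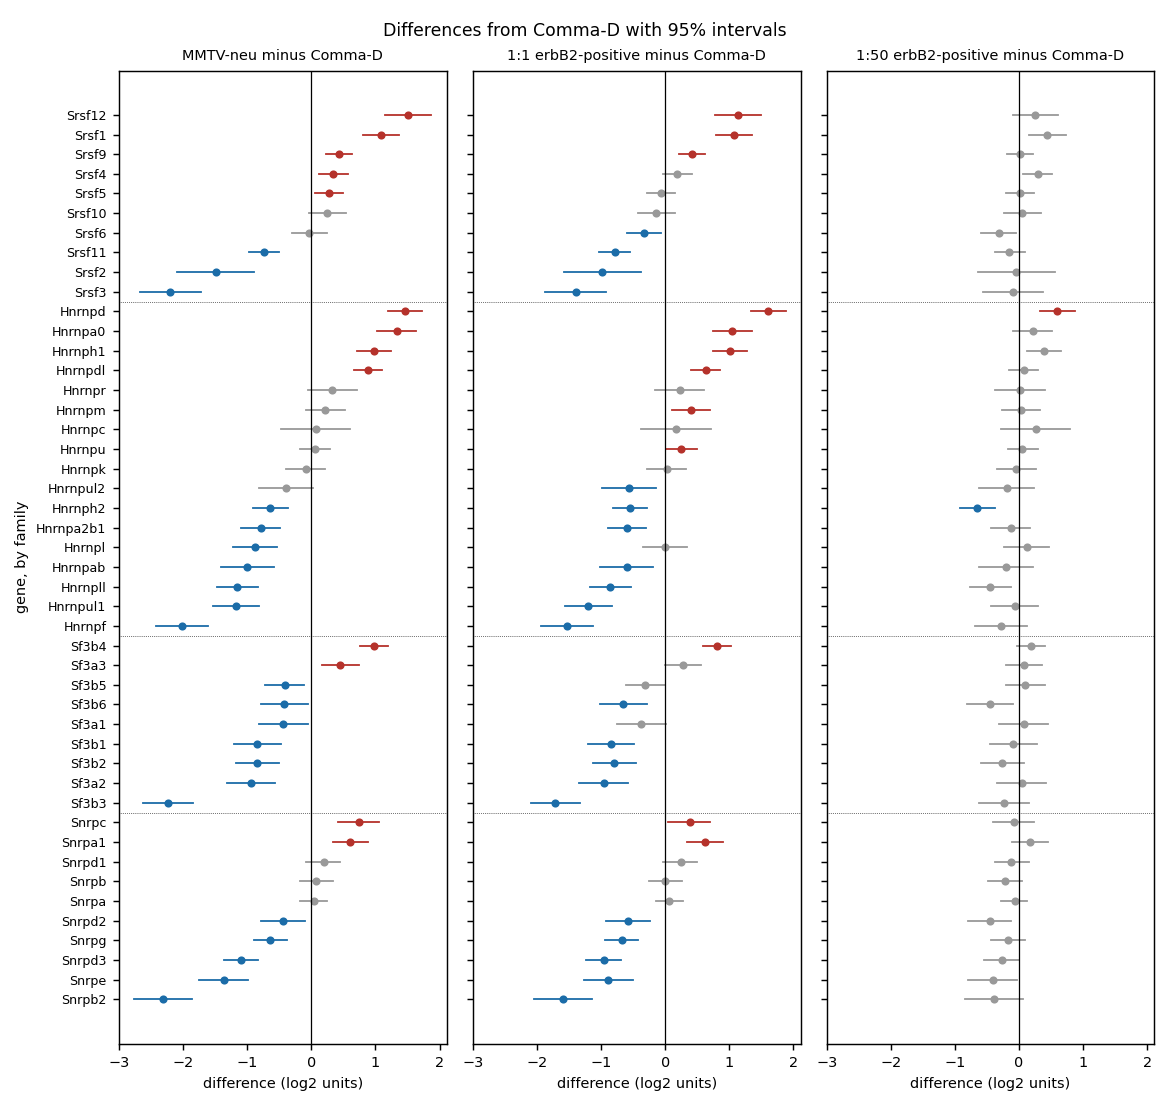
Difference from Comma-D in log2 units (x axis) for each splicing factor gene (y axis, by family), in MMTV-neu, in the 1:1 erbB2-positive and in the 1:50 erbB2-positive fraction. Points are limma estimates and lines their 95% intervals, not adjusted for the number of genes. Red and blue mark genes called higher and lower, which number 13 and 22, 12 and 21, and 1 and 1.

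Lists of other cell types and of sample handling moved with the line comparison, where 56.4% of all genes were called higher and 30.4% lower. Of 15 basal and myoepithelial markers 2 were higher and 11 lower, with a mean level of 9.27 to 9.31 on Comma-D and 7.34 to 7.52 on MMTV-neu arrays. Of 14 luminal markers 6 were higher and 7 lower (8.19 to 8.32 and 7.64 to 7.70), and of 10 fibroblast markers 5 were higher and 5 lower (8.05 to 8.12 and 6.86 to 6.96). Of 11 endothelial markers 11 were higher in MMTV-neu, with a mean level of 5.46 to 5.53 on Comma-D and 6.41 to 6.52 on MMTV-neu arrays. Of 11 leukocyte markers 9 were higher and 2 lower (5.74 to 5.79 and 6.13 to 6.35), and of 8 adipocyte markers 7 were higher and 1 lower (5.56 to 5.57 and 6.05 to 6.24). No array value is a true zero, so none of these markers can be said to be absent. Of 20 immediate early and heat shock genes, 2 were higher and 17 lower in MMTV-neu (9.81 to 9.88 and 7.98 to 8.23). Of these 20 genes 17 lay in the highest quartile in Comma-D, where 83.7% of genes were called lower and 5.96% higher. That quartile held 10 of the basal, 7 of the luminal and 5 of the fibroblast markers. It held 0 of the endothelial, 1 of the leukocyte and 0 of the adipocyte markers. After quantile normalization 8 endothelial, 5 leukocyte and 3 adipocyte markers were called higher, 12 basal markers lower and 14 handling genes lower. The part of these lists in the differences of the splicing factor genes was not tested.

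The erbB2-positive cells of the 1:1 co-culture, labelled cancer, differed from MMTV-neu in few members. In this fraction 3 members were higher and 1 lower than in MMTV-neu, 8.70% of members against 18.3% of all genes (4.21% higher, 14.1% lower), with a median of 0.0202. For 8 members, against 32.2% of all genes, the arrays did not overlap, and 12 members had an unadjusted p under 0.05. Hnrnpl was at 9.43, 9.55 and 9.68 in the fraction and at 8.92, 8.48 and 8.64 in MMTV-neu, all 3 arrays above the line alone (difference 0.87, SE 0.16, adjusted p 0.00258). Srsf3 was at 9.24, 9.81 and 10.24, also above the line (0.81, SE 0.22, adjusted p 0.0213), and Snrpb2 was the third member higher (0.73, SE 0.21, adjusted p 0.0273), with arrays that overlapped the line. On the mean of its 3 probe sets Srsf3 differed by 0.42 and was not called (adjusted p 0.276). Srsf5 was lower by -0.34 (SE 0.10, adjusted p 0.0331). The calls were 3 higher and 3 lower after centring, and 4 and 3 after quantile normalization. The count was 7 without MMTV-neu replicate 1 and 1 without replicate 2 or 3 of the fraction. The call of Srsf3 was lost without MMTV-neu replicate 3 (0.78, adjusted p 0.0535) and without replicate 2 (0.78, 0.0669) or 3 (0.57, 0.127) of the fraction. That of Snrpb2 was lost when MMTV-neu replicate 1 (0.68, 0.0698) or 2 (0.63, 0.0861) was left out, or the fraction's replicate 2 (0.70, 0.0833) or 3 (0.52, 0.155). That of Srsf5 was lost without MMTV-neu replicate 1 (-0.23, 0.109) and without replicate 1 (-0.31, 0.0696), 2 (-0.36, 0.0702) or 3 (-0.35, 0.0856) of the fraction. Among markers, Krt8 in this fraction was at 11.28 ± 0.06 (SD, n = 3), near MMTV-neu. Vim at 11.83 ± 0.59, Krt14 at 9.70 ± 0.25 and Epcam at 6.84 ± 0.83 lay between the lines. The share of each line in this fraction was not measured, and its part in these levels was not tested.

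Set against Comma-D, the same 1:1 erbB2-positive arrays had 12 members higher and 21 lower, with a median of -0.22. These are 26.1% and 45.7% of members, where 45.8% of all genes were higher and 32.5% lower (78.3% either way, median 0.19). After centring 30 were higher and 4 lower, and after quantile normalization 31 and 6. For 36 of 46 members, against 85.1% of all genes, the arrays did not overlap. All 12 rises held under both scales, and of the 21 falls those of Hnrnpf, Sf3b3, Snrpb2 and Srsf3 held. Here too centring shifted every difference upwards, so no rise could turn under it. Both comparisons of this fraction use the same arrays, and that with Comma-D shares its control with the comparison of the lines.

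The 4 largest falls and the 4 largest rises against Comma-D in this fraction are given next. Sf3b3 was at 8.32, 8.90 and 8.86 and Snrpb2 at 8.01, 8.54 and 8.89 in the 1:1 erbB2-positive fraction, differences from Comma-D of -1.72 (SE 0.18, adjusted p 6.09e-07) and -1.60 (SE 0.21, adjusted p 5.13e-06). Hnrnpf was at 8.96, 9.32 and 9.66 (difference -1.53, SE 0.19, adjusted p 3.27e-06), and Srsf3 differed by -1.40 (SE 0.22, adjusted p 2.87e-05). For each of the 4 genes all arrays of the fraction lay below all Comma-D arrays. Hnrnpd was at 11.02, 11.24 and 11.11, which is 3.05-fold above Comma-D (difference 1.61, SE 0.13, adjusted p 4.79e-08). Srsf12 was at 6.62, 6.24 and 6.63 (difference 1.13, SE 0.17, adjusted p 1.46e-05). Srsf1 was at 10.15, 10.28 and 10.20 (1.08, SE 0.14, adjusted p 2.82e-06), and Hnrnpa0 at 9.41, 8.95 and 9.20 (1.05, SE 0.14, adjusted p 6.55e-06). The fraction lay wholly above Comma-D for all 4 of these genes.

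The erbB2-positive cells of the 1:50 co-culture, labelled redirected, differed from Comma-D in few members. Hnrnpd (higher) and Hnrnph2 (lower) were called against Comma-D, 4.35% of members against 5.71% of all genes (1.17% higher, 4.54% lower). The median was -0.0578 (all genes 0.00826), and 10 of 46 members had an unadjusted p under 0.05, against 4388 of 19938 genes. The count of called members was 12 with array weights (5 higher, 7 lower). It was 9 in a fit of both groups alone (3 higher, 6 lower) and 4 with the replicate block (3 higher, 1 lower). Hnrnpd was at 10.45, 9.95 and 9.93, all above Comma-D, and lay between both lines (difference 0.59, SE 0.13, adjusted p 0.0111). Its call was lost without Comma-D replicate 3 (0.56, adjusted p 0.0630) or replicate 1 of the fraction (0.42, 0.0606). Hnrnph2, a paralog of Hnrnph1 that binds G runs, was at 8.15, 8.38 and 8.12 in the fraction against 8.78, 8.96 and 8.86 in Comma-D (difference -0.65, SE 0.13, adjusted p 0.00556). These values overlapped those of MMTV-neu, at 8.37, 8.23 and 8.08, but on the other Hnrnph2 probe set the fraction was above MMTV-neu (0.59, SE 0.21, adjusted p 0.0151). After centring (-0.40, adjusted p 0.106) and quantile normalization (-0.37, 0.127) the difference from Comma-D was no longer called. After centring 2 members were called higher and 0 lower, and after quantile normalization 1 and 0. The arrays did not overlap for 24 of 46 members, against 37.5% of all genes. Beside these values, Krt8 in the fraction was at 10.37 ± 0.34 (SD, n = 3), near MMTV-neu, and Krt14 at 11.49 ± 0.19, Vim at 12.85 ± 0.13 and Epcam at 9.04 ± 0.34, near Comma-D. The immediate early and heat shock list was at 8.84 to 9.30, below Comma-D. The share of each line in the sorted fraction was not measured on the arrays, and its part in these levels was not tested.

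Against MMTV-neu, the same 1:50 erbB2-positive arrays had 19 members higher and 14 lower, with a median of -0.0069, where 83.4% of all genes were called (25.8% higher, 57.6% lower, median -0.40). After centring 5 were higher and 30 lower, and after quantile normalization 7 and 27. The rises of Srsf3, Sf3b3, Snrpb2 and Hnrnpf held under both scales, as did all 14 falls. In this comparison centring shifted every difference downwards, so no fall could turn under it. For 34 members, against 81.4% of all genes, the arrays did not overlap. Srsf3 was at 10.88, 11.24 and 11.08, a 4.32-fold higher signal than in MMTV-neu (difference 2.11, SE 0.22, adjusted p 5.25e-07). Sf3b3 was at 9.91, 10.32 and 10.31 (2.00, SE 0.18, adjusted p 1.07e-07). Snrpb2 was at 9.46, 9.77 and 9.81 (1.93, SE 0.21, adjusted p 8.15e-07), and Hnrnpf at 10.21, 10.72 and 10.78 (1.74, SE 0.19, adjusted p 9.19e-07). For all 4 the fraction was far above every MMTV-neu array, and replicate 1 was its lowest array.

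The falls against MMTV-neu were led by Srsf12 and Hnrnpa0. Srsf12 was at 5.81, 5.48 and 5.56 in the 1:50 erbB2-positive fraction (difference -1.26, SE 0.17, adjusted p 5.24e-06). Hnrnpa0 was at 8.53, 8.29 and 8.23 (-1.12, SE 0.14, adjusted p 3.41e-06), and Hnrnpd differed by -0.87 (SE 0.13, adjusted p 1.36e-05). The fraction lay wholly below MMTV-neu for these 3 genes. Snrpc differed by -0.82 (SE 0.15, adjusted p 1.18e-04) on the probe set used, and by -0.19 (adjusted p 0.184) on the mean of its probe sets.

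**Figure D3:**
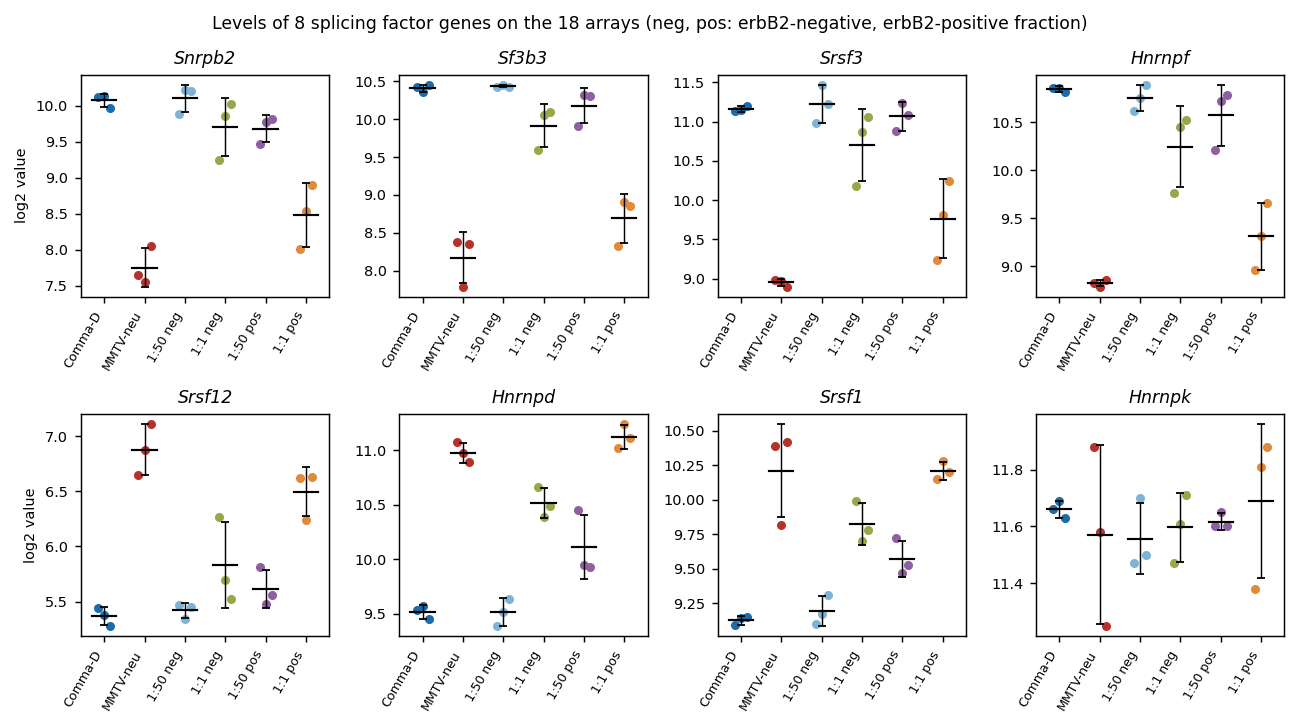
Log2 value (y axis, scaled to each gene) of 8 splicing factor genes on each array by group (x axis), with the group mean as a bar and ± 1 SD as whiskers (n = 3). Snrpb2, Sf3b3, Srsf3 and Hnrnpf were low in MMTV-neu and the 1:1 erbB2-positive fraction, Srsf12, Hnrnpd and Srsf1 were high there, and Hnrnpk overlapped between groups. The genes were picked for drawing after their values were seen.

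Compared directly, both erbB2-positive fractions differed in 29 members, 17 higher and 12 lower at 1:50 than at 1:1, with a median of 0.11. That is 63.0% of members, against 71.4% of all genes (27.4% higher, 44.0% lower, median -0.19). After centring 5 were higher and 28 lower, and after quantile normalization 6 and 26. The rises of Hnrnpf, Hnrnpul1, Sf3b3 and Srsf3 and all 12 falls held in both. Again centring shifted every difference downwards, so no fall could turn under it. Arrays were apart for 30 members, against 78.7% of all genes. The largest rises at 1:50 were those of Sf3b3 (1.48, SE 0.18, adjusted p 7.67e-06), Srsf3 (1.31, SE 0.22, adjusted p 1.18e-04), Hnrnpf (1.25, SE 0.19, adjusted p 5.55e-05) and Snrpb2 (1.21, SE 0.21, adjusted p 1.55e-04). Snrpb2 was at 0.49 and no longer called after quantile normalization (adjusted p 0.0541). The largest falls were those of Hnrnpd (-1.01, SE 0.13, adjusted p 1.04e-05), Srsf12 (-0.88, SE 0.17, adjusted p 2.83e-04), Hnrnpa0 (-0.84, SE 0.14, adjusted p 1.21e-04) and Srsf1 (-0.63, SE 0.14, adjusted p 6.67e-04). For each of these 8 genes the arrays of the fractions did not overlap.

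The erbB2-negative cells of the 1:50 co-culture did not differ detectably from Comma-D. With limma 0 of 46 members were called, against 1.68% of all genes (0.592% higher, 1.08% lower). An unadjusted p under 0.05 was found for 4 members, against 1751 of 19938 genes. The member differences ranged from -0.29 to 0.55 with a median of 0.0244. Without replicate 2 of the fraction 1 member was called. Hnrnpd, for example, was at 9.39, 9.52 and 9.64 in the fraction and 9.45 to 9.57 in Comma-D, and the values interleaved.

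The erbB2-negative cells of the 1:1 co-culture did differ, with 7 members higher and 10 lower than in Comma-D and a median of -0.13. This is 37.0% of members, against 35.7% of all genes (14.9% higher, 20.9% lower, median 0.0344), so the share is near the background. After centring 20 were higher and 0 lower, and after quantile normalization 13 and 0. The arrays did not overlap for 28 members, against 55.2% of all genes. Without its replicate 1, 6 members were called, and 10, 8 and 9 were called without Comma-D replicate 1, 2 and 3. Hnrnpd was at 10.66, 10.39 and 10.49, all above Comma-D (difference 1.00, SE 0.13, adjusted p 7.8e-05). Srsf1 was at 9.99, 9.70 and 9.78 (0.70, SE 0.14, adjusted p 0.00181), and Hnrnpa0 at 8.79, 8.68 and 8.79 (0.61, SE 0.14, adjusted p 0.00551). Hnrnph1, which binds G runs like its paralog, was at 9.99, 9.60 and 9.69 against 9.21, 9.25 and 9.13 (0.56, SE 0.12, adjusted p 0.00402). These 4 rises kept their call under both other scales and without any single array. Krt8 in this fraction was at 10.76 ± 0.33 (SD, n = 3), near MMTV-neu, and Epcam at 7.66 ± 1.00, between the lines with a wide spread. Krt14 at 10.98 ± 0.29 and Vim at 12.79 ± 0.27 were near Comma-D. Their part in the result was not tested.

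The largest falls in that fraction lost their calls on the other scales, but centring shifts every difference of this comparison upwards. It could thus turn no rise and could end falls of this size, so it does not compare their stability. Hnrnph2 was at 7.98, 8.23 and 8.38 (difference from Comma-D -0.67, SE 0.13, adjusted p 0.00155), and Hnrnpf at 9.76, 10.45 and 10.52 (-0.60, SE 0.19, adjusted p 0.0257). The Sm protein gene Snrpe differed by -0.59 (SE 0.18, adjusted p 0.0206) and Hnrnpll, a relative of Hnrnpl known from T cells, by -0.51 (SE 0.15, adjusted p 0.0184). None of the 4 was called after centring (-0.22, -0.15, -0.14 and -0.06) or quantile normalization (-0.23, -0.16, -0.14 and -0.15). Without replicate 1 of the fraction Hnrnpf was at -0.36 (adjusted p 0.176), Snrpe at -0.32 (0.137) and Hnrnpll at -0.33 (0.127). Hnrnpf also lost its call without Comma-D replicate 1, 2 or 3 (-0.59, -0.59 and -0.62), Snrpe without replicate 3 (-0.53) and Hnrnpll without replicate 2 (-0.49).

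Between the erbB2-negative fractions, 9 members were higher and 5 lower at 1:50 than at 1:1, with a median of 0.17 (all genes -0.0352). This is 30.4% of members, against 30.3% of all genes (21.4% higher, 8.87% lower), and the arrays did not overlap for 20 members, against 56.9% of all genes. Same-numbered arrays of these fractions deviated together, and 24 members were called, 17 higher and 7 lower, when the 12 co-culture arrays were modelled alone with replicate number as a block. Without replicate 1 of the 1:1 fraction 2 were called and without its replicate 3 there were 23, while leaving out replicate 1, 2 or 3 of the 1:50 fraction gave 5, 9 and 4. After centring 0 were higher and 19 lower, and after quantile normalization 0 and 8. Hnrnpd (1.996-fold lower, SE 0.13 on the log2 scale, adjusted p 6.19e-04) and Srsf1 (-0.63, SE 0.14, adjusted p 0.00673) fell in each of these single-array fits, with arrays that did not overlap. Hnrnph1 differed by -0.52 (SE 0.12, adjusted p 0.0101), and by -0.41 (adjusted p 0.0634) without replicate 1 of the 1:1 fraction. Sf3a2, a subunit of SF3a, was higher by 0.76 (SE 0.18, adjusted p 0.0104), and at 0.57 (adjusted p 0.0647) without that array.

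Within the 1:50 co-culture, 0 of 46 members were called between the erbB2-positive and erbB2-negative fractions by limma, against 0.01% of all genes. The median difference of the members was -0.0973, with a range of -0.45 to 0.60. An unadjusted p under 0.05 was found for 10 of 46 members, against 2675 of 19938 genes. Arrays were apart for 15 members, against 29.1% of all genes. The replicate block gave 0 calls as well, and array weights gave 12.

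Within the 1:1 co-culture, 10 members were higher and 10 lower in the erbB2-positive than in the erbB2-negative fraction, with a median of -0.0305. This is 43.5% of members, against 56.1% of all genes (35.2% higher, 21.0% lower, median 0.16). The arrays did not overlap for 18 members, against 55.0% of all genes. After centring 25 were higher and 4 lower, and after quantile normalization 23 and 5. Snrpb2 (-1.23, SE 0.21, adjusted p 3.96e-04), Sf3b3 (-1.22, SE 0.18, adjusted p 1.29e-04) and Hnrnpf (-0.93, SE 0.19, adjusted p 0.00142) were lower in the erbB2-positive cells under all 3 scales. Hnrnpul1, an hnRNP U-like protein, was lower by -0.71 (SE 0.17, adjusted p 0.00344), and at -0.20 and -0.12 it was not called under the other scales. Hnrnpd (0.61, SE 0.13, adjusted p 0.00142), Hnrnph1 (0.45, SE 0.12, adjusted p 0.00679), Hnrnpdl, a D-like protein (0.39, SE 0.11, adjusted p 0.00589), and Hnrnpa0 (0.44, SE 0.14, adjusted p 0.0175) were higher, with arrays apart in each. The call of Hnrnpa0 was lost without replicate 2 of the erbB2-negative fraction (0.40, adjusted p 0.0629) or replicate 1 of the erbB2-positive one (0.33, 0.0970).

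Whether the difference by ratio differed between the erbB2-positive and erbB2-negative fractions was tested as an interaction. With limma 0 of 46 members were called, against 2.75% of all genes (2.45% higher, 0.301% lower). An unadjusted p under 0.05 was found for 9 members, against 4567 of 19938 genes. The nearest, chosen after its values were seen, was Sf3b3, whose change by ratio was larger by 0.96 (SE 0.26, adjusted p 0.0547) in the erbB2-positive fractions. Without replicate 1 of the 1:1 erbB2-negative fraction 7 members were called, without replicate 1 of the 1:50 erbB2-positive fraction 2, and without MMTV-neu replicate 2 or replicate 3 of the 1:1 erbB2-positive fraction 1. With the replicate block 3 were called, and 4 in the 12 co-culture arrays.

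**Figure D4:**
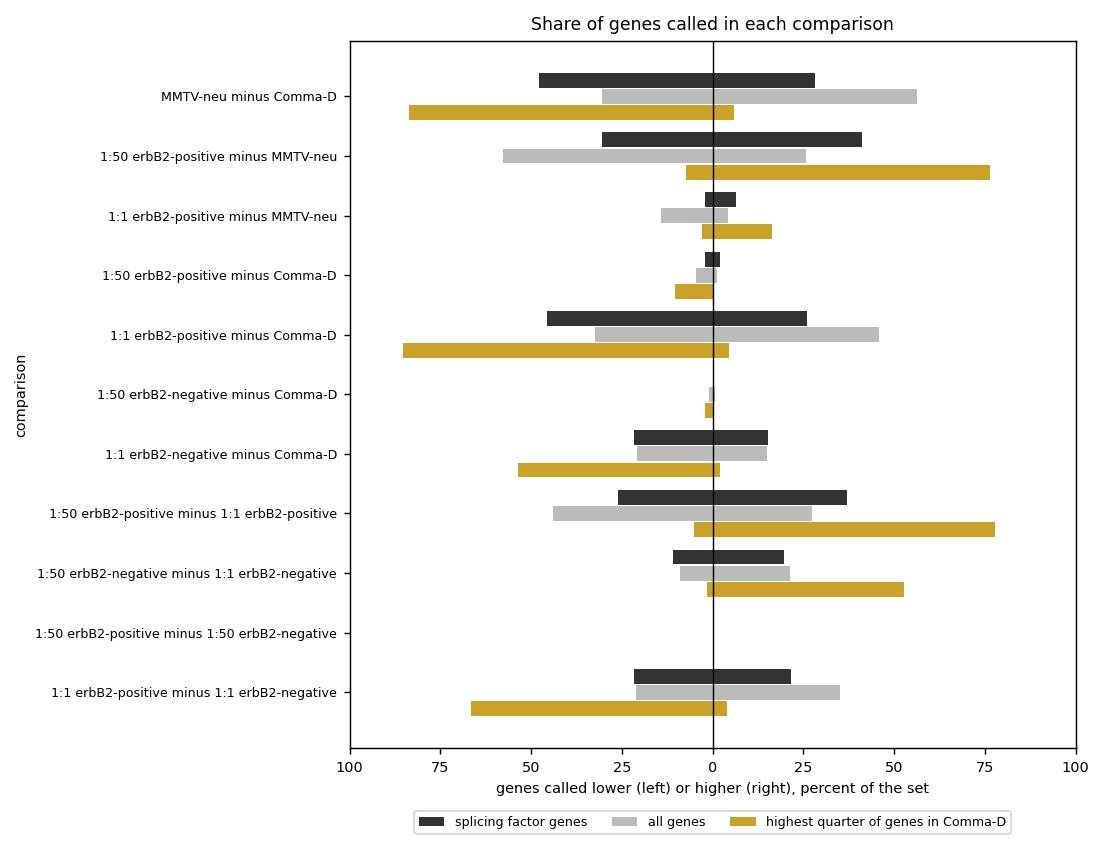
Percent of genes called lower (left of 0) and higher (right of 0) in each of the 11 comparisons (y axis), for the 46 splicing factor genes, all 19938 genes and the highest quartile of genes in Comma-D. In MMTV-neu minus Comma-D the members were called lower in 47.8% and higher in 28.3%, between the shares of the other sets.

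A size of at least 1 log2 unit, beside the call, was reached by 13 members in MMTV-neu minus Comma-D (37.7% of all genes), by 10 in 1:1 erbB2-positive minus Comma-D (28.2%), by 8 in 1:50 erbB2-positive minus MMTV-neu (25.2%) and by 7 between the erbB2-positive fractions (15.7%). Within 1:1 the number was 2 (8.16%), those being Snrpb2 and Sf3b3. It was 0 in 1:1 erbB2-positive minus MMTV-neu (1.96% of all genes), in 1:50 erbB2-positive (0.988%), 1:50 erbB2-negative (0.507%) and 1:1 erbB2-negative minus Comma-D (2.81%), between the erbB2-negative fractions (1.15%), within 1:50 (0.01%) and for the interaction (1.89%).

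The position of each group between the lines was described over the 35 members called between MMTV-neu and Comma-D, with the Comma-D mean at 0% and the MMTV-neu mean at 100%. The lines are fixed at these ends by the choice of genes, so only the fractions are read. Positions were taken on the deposited scale only, and of the 22 falls among these members only 4 held on both other scales. The median position was 3.82% in the 1:50 erbB2-negative, 16.7% in the 1:50 erbB2-positive, 39.5% in the 1:1 erbB2-negative and 78.6% in the 1:1 erbB2-positive fraction. The group mean lay between both lines for 20, 27, 32 and 25 of the 35 members in that order. The 1:1 erbB2-negative arrays were far apart, at 64.03%, 32.7% and 17.6%, and the 1:50 erbB2-positive arrays at 29.4%, 12.9% and 11.8%. The 1:1 erbB2-positive arrays were at 93.4%, 81.6% and 77.7%. In each of these fractions the array nearest to MMTV-neu, replicate 1, also had the narrowest spread over all genes. Its SD was 1.49 in the 1:1 erbB2-negative, 1.64 in the 1:50 erbB2-positive and 1.32 in the 1:1 erbB2-positive fraction. The part of the spread in the positions was not tested. Neither erbB2-positive fraction had a member called above both lines or below both.

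Single members did not all follow the median. In the 1:50 erbB2-positive fraction Srsf3 stood at 4.2%, Sf3b3 at 10.3%, Hnrnpf at 13.7% and Snrpb2 at 16.8% of the way to MMTV-neu. Hnrnpd stood at 40.7%, Srsf1 at 41.1% and Hnrnph1 at 39.2%. Hnrnph2 stood at 101.8% on the probe set used, while its other one placed the fraction between the lines. In the 1:1 erbB2-positive fraction Srsf3 stood at 63.4%, Snrpb2 at 68.7%, Hnrnpd at 109.8% and Hnrnpl at 0.8%. The order Comma-D, 1:50, 1:1, MMTV-neu held for 19 of 35 members in the erbB2-positive and 17 of 35 in the erbB2-negative fractions.

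**Figure D5:**
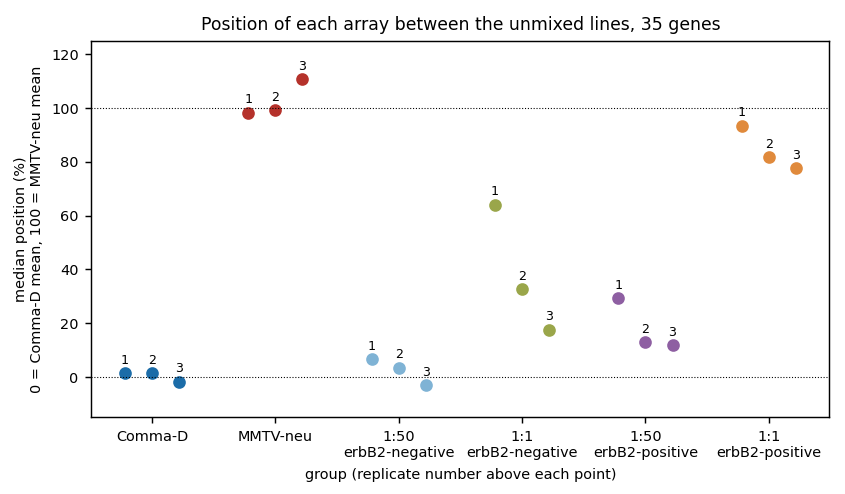
Median position of each array (points, numbered by replicate) over the 35 splicing factor genes called between the lines, by group, on the deposited scale only. The y axis is in percent, with the Comma-D mean at 0 and the MMTV-neu mean at 100. Replicate 1 of the 1:1 erbB2-negative and of the 1:50 erbB2-positive fraction stand nearest to MMTV-neu in their groups, at 64.03% and 29.4%.

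Of 157 other splicing genes in 7 lists, 144 were measured, and they were mostly lower in MMTV-neu. Against Comma-D 27 were higher and 89 lower, with a median of -0.57. In the 1:1 erbB2-positive fraction 25 were higher and 89 lower than in Comma-D (median -0.58), and in the 1:50 erbB2-positive fraction 3 were higher and 4 lower (median -0.12). These comparisons share the Comma-D arrays, and 100 of the 144 genes were in the highest quartile in Comma-D, of which 83.7% were called lower in MMTV-neu. The split turned with the scale. For MMTV-neu minus Comma-D, centring gave 80 higher and 27 lower (median 0.55) and quantile normalization 63 and 46 (median 0.21).

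SR protein kinases and SR-related proteins, which phosphorylate, import or work with the SR proteins, had 2 of 21 genes higher and 18 lower in MMTV-neu (median -1.02), and 20 of the 21 lay in the highest quartile, where 83.7% of genes were called lower. On the other scales 6 were higher and 7 lower, and 6 and 9. Srrm2, a nuclear speckle scaffold, differed by -3.74 (SE 0.27, adjusted p 3.72e-09), Tnpo3, the importin of SR proteins, by -3.38 (SE 0.20, adjusted p 4.84e-10), and the kinase Clk1 by -3.16 (SE 0.22, adjusted p 2.38e-09). The mean level of this list was 9.36 to 9.42 on Comma-D, 8.0 to 8.33 on MMTV-neu, 9.06 to 9.43 on 1:50 erbB2-positive and 8.22 to 8.53 on 1:1 erbB2-positive arrays. The 1:50 erbB2-positive arrays thus overlapped Comma-D and lay apart from MMTV-neu.

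For recognition of the splice sites by U1, U2 and their partners, 2 of 17 genes were higher and 13 lower (median -0.51). Of all genes 56.4% were called higher and 30.4% lower. After centring 11 genes of this list were higher and 2 lower, and after quantile normalization 10 and 5. U2af1 and U2af2 code for both subunits of the factor that reads the 3′ splice site, and they went opposite ways, at 1.52 (SE 0.14, adjusted p 5.08e-08) and -1.85 (SE 0.20, adjusted p 2.49e-07). Phf5a, a small SF3b subunit, differed by -2.02 (SE 0.22, adjusted p 3.00e-07). In the U4/U6.U5 tri-snRNP 6 of 23 genes were higher and 10 lower (median -0.24), with Prpf3 at 1.2 (SE 0.1) and Usp39 at -2.40 (SE 0.18). Centring gave 15 higher and 3 lower in this list, and quantile normalization 13 and 5. The Sm-like proteins of the U6 particle differed among themselves, with Lsm5 at 1.43 (SE 0.20), Lsm8 at -2.29 (SE 0.28) and Lsm6 at -1.66 (SE 0.25). All genes named in this paragraph were called on all 3 scales, in the same direction.

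Of the complex around Prp19 and the catalytic step 3 of 27 genes were higher and 18 lower (median -0.65). Among them were the helicase Aqr at -3.01 (SE 0.24) and Slu7, a factor of the second step, at -2.23 (SE 0.17). The counts of this list were 15 higher and 5 lower after centring, and 9 and 10 after quantile normalization. The exon junction complex, which is laid down on spliced exons, had 0 of 10 genes higher and 8 lower (median -0.78). Rnps1 was at -2.24 (SE 0.22) and the helicase Eif4a3 at -1.63 (SE 0.25). This split depended on the scale, with 5 higher and 2 lower after centring, and 3 and 5 after quantile normalization. In the minor spliceosome, which removes a rare class of introns, 4 of 9 genes were higher and 3 lower (median 0.19). Armc7 was at 1.24 (SE 0.12) and Zcrb1 at -3.54 (SE 0.30). Centring gave 6 higher and 2 lower, and quantile normalization 3 and 3.

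Of 37 other splicing regulators 10 were higher and 19 lower in MMTV-neu (median -0.46). After centring 22 were higher and 6 lower, and after quantile normalization 19 and 9. Nova1, best known from neurons, differed by 2.40 (SE 0.19, adjusted p 1.14e-08) and Rbm10 by 1.69 (SE 0.13, adjusted p 6.18e-09). Ptbp3, a relative of the polypyrimidine tract binding protein, differed by -2.67 (SE 0.25, adjusted p 8.88e-08), and Elavl1, an AU-rich element binder also called HuR, by -2.59 (SE 0.23, adjusted p 4.42e-08). In the 1:50 erbB2-positive fraction Nova1 was above Comma-D by 0.69 (SE 0.19, adjusted p 0.0407) and Mbnl1, a muscleblind protein, by 0.49 (SE 0.09, adjusted p 0.00356), of which Mbnl1 was called on all 3 scales and Nova1 was not after quantile normalization (0.54, adjusted p 0.273). Khdrbs3 was below it by -0.58 (SE 0.11, adjusted p 0.00344) and Mbnl3 by -0.68 (SE 0.19, adjusted p 0.0477). After centring neither was called (-0.32 and -0.42), and after quantile normalization Khdrbs3 was (-0.48, adjusted p 0.00865) and Mbnl3 was not (-0.39).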

How the data were processed

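Whole-transcript mouse arrays were hybridised with RNA of 18 samples in 6 groups of 3, assigned from the sample titles. Per the submitters' processing notes, the deposited log2 values were made with RMA, R 3.1.2 and limma. The deposited table has 35556 probe sets and 0 columns of other samples. How probes were summarised is not given in the sources used here, and the spread of the arrays differs between groups although RMA usually equalises it. Arrays give no read depth, and their number limits the precision.

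Genes were named from the platform annotation, where 21789 of 23410 listed probe sets have a single gene and 1621 have several. The several-gene probe sets were left out. By gene ID, 21698 of the former were found in RefSeq, with 0 symbols changed. No filter on low values was applied, so all 46 members were tested.

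Differences were tested in R 4.3.3 by lmFit and eBayes of limma 3.58.1 (two-sided, all 18 arrays in 1 fit, 12 residual degrees of freedom), with Benjamini-Hochberg adjustment over 19938 genes and calls at 0.05. The fit was tested on simulated data. Same-numbered arrays deviated together (every pair's r over 0.1) in 4 of 11 comparisons, those among the co-culture fractions, with r from 0.15 to 0.70. No array repeats another: even the 2 most alike had a probe set 2.11 log2 units apart.

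Values are given by rule for a core list of members, for the 4 members with the largest called rise and fall of each comparison with arrays that do not overlap, for the largest called interactions, for members whose probe sets disagree, and for the 3 largest differences either way of each list of other splicing genes. From these the text took a selection after the values were seen, and the spread of Hnrnpc, the probe sets of Snrpg and the interaction of Sf3b3 were added then. The members, the lists and the tests were chosen with earlier results of these data known. Alternatives were a filter on low values, averaging a gene's probe sets, trend and robust priors, array weights (estimated gene by gene, since the default did not converge), both scalings, stricter thresholds, a replicate block, fits restricted to the compared groups, and leaving out each array.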

Additional observations from a re-analysis of the deposited data

How the results depend on the processing

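Leaving out each array in turn gave 32 to 36 members called for MMTV-neu minus Comma-D, 30 to 33 for 1:50 erbB2-positive and 1 to 7 for 1:1 erbB2-positive minus MMTV-neu. Against Comma-D it gave 1 to 2 for 1:50 erbB2-positive, 28 to 32 for 1:1 erbB2-positive, 0 to 1 for 1:50 erbB2-negative and 6 to 20 for 1:1 erbB2-negative. Between ratios it gave 23 to 29 for the erbB2-positive and 2 to 23 for the erbB2-negative fractions, within ratios 0 at 1:50 and 14 to 27 at 1:1, 0 to 7 for the interaction and 34 to 37 for the F test. A size of at least 1 log2 unit left 13 for the lines, 8 and 0 for the 1:50 and 1:1 erbB2-positive fractions against MMTV-neu, 0 and 10 for the same fractions against Comma-D, 0 for 1:1 erbB2-negative minus Comma-D, 7 and 0 between ratios for erbB2-positive and erbB2-negative, and 2 within 1:1. At an adjusted p under 0.01 there were 1 for 1:1 erbB2-positive minus MMTV-neu, 1 for 1:50 erbB2-positive and 7 for 1:1 erbB2-negative minus Comma-D, 2 between the erbB2-negative fractions and 12 within 1:1. Array weights gave 8 for 1:1 erbB2-positive minus MMTV-neu, 12, 4 and 28 for 1:50 erbB2-positive, 1:50 erbB2-negative and 1:1 erbB2-negative minus Comma-D, 28 between the erbB2-negative fractions, 12 within 1:50, 32 within 1:1 and 23 for the interaction. Fits of the compared groups only gave 1 for 1:1 erbB2-positive minus MMTV-neu, 9, 1 and 8 for 1:50 erbB2-positive, 1:50 erbB2-negative and 1:1 erbB2-negative minus Comma-D, 0 between the erbB2-negative fractions and 13 within 1:1. The replicate block gave 7 for 1:1 erbB2-positive minus MMTV-neu, 4 for 1:50 erbB2-positive minus Comma-D and 3 for the interaction, and in the 12 co-culture arrays 24 between the erbB2-negative fractions and 4 for the interaction. The block changed the call of no named gene. Deviations from the group mean were also correlated between each array and all arrays of other groups, and averaged by replicate number. For 13 of 18 arrays the highest average was that of their own number. Quantile normalization gave 7 for 1:1 erbB2-positive minus MMTV-neu, 1 for 1:50 erbB2-positive minus Comma-D, 8 between the erbB2-negative fractions and 4 for the interaction, which had 1 after centring and 1 without the lowest 40% of genes. The scaled counts of the other gene lists were added after seeing the data. Also chosen then, a fit without the 3 MMTV-neu arrays gave 4 for 1:50 erbB2-positive minus Comma-D and 1 for the interaction. A fit without the 6 replicates numbered 1 gave 14 for 1:1 erbB2-positive minus MMTV-neu, 6 for 1:1 erbB2-negative minus Comma-D, 3 between the erbB2-negative fractions and 9 for the interaction. The median member difference turned sign after centring and quantile normalization in MMTV-neu minus Comma-D (0.88 and 0.77), in 1:50 erbB2-positive (0.20 and 0.15), 1:1 erbB2-positive (0.74 and 0.67) and 1:1 erbB2-negative minus Comma-D (0.32 and 0.23), between ratios in erbB2-positive (-0.61 and -0.60) and erbB2-negative cells (-0.28 and -0.23), and within 1:50 (0.15 and 0.12) and 1:1 (0.49 and 0.42). In 1:50 erbB2-negative minus Comma-D it ran from -0.023 (without replicate 3 of that fraction) to 0.0442 over the fits without 1 array. Between the lines, Hnrnpa2b1 (0.32 and 0.38), Hnrnpk (1.03 and 0.79), Hnrnpl (0.24 and 0.20), Sf3b1 (0.27 and 0.30) and Sf3a1 (0.68 and 0.44) turned sign after centring and quantile normalization. By construction, centring lifts all values of the arrays of narrow spread against the other arrays, and quantile normalization lifts their high values. For the other changes the cause was not tested. Of 67 called pairs of named gene and comparison, 40 kept direction and call under all alternatives run.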
